A study of Homo sapiens with 22 samples.

Results

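Compound A (CpdA), a plant-derived selective modulator of the glucocorticoid receptor (GR), was given to MDA-MB-231 cells for 2 h or 4 h, and the transcriptomes of the later and the earlier time were compared. MDA-MB-231 is an established human triple-negative breast cancer (TNBC) cell line. The comparison used 4 libraries, 2 biological replicates at 2 h and 2 at 4 h with 10 μM CpdA, out of 10 RNA-seq samples and 22 samples of all kinds in the series. The other RNA-seq samples were 2 vehicle samples and 4 samples given 100 nM dexamethasone (Dex), a synthetic glucocorticoid, for 2 h or 4 h. All cells were kept in phenol red-free medium with charcoal-stripped serum before ligand was added, so vehicle and treated cells shared a steroid-depleted background. Of 20668 gene symbols, 12713 with at least 0.5 RPKM (reads scaled to transcript length and to the mapped reads of the library) in at least 2 of the 10 samples were tested. The labels did not say which vehicle sample belonged to which time, while the column names tied vehicle replicate 1 to 2 h and vehicle replicate 2 to 4 h. Each vehicle time is therefore 1 library, and the difference between these samples was set beside every CpdA time difference.

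Cells that meet a reactive or protein-damaging compound switch on several transcript programmes. Immediate early genes such as EGR1 and FOS need no new protein synthesis and usually rise and fall quickly, and MAP kinase phosphatases of the DUSP family feed back on the kinases that induce them. HSF1 drives chaperone genes when proteins misfold in the cytosol, NRF2 drives glutathione and thioredoxin genes under oxidative or electrophilic stress, and the unfolded protein response (UPR) raises folding and degradation factors of the endoplasmic reticulum.

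Duplicates were close. The SD of the log2 difference between duplicates over all genes tested was 0.193 at CpdA 2 h, 0.196 at CpdA 4 h and 0.261 between the vehicle samples. Relative depth, taken from the spacing of the lowest RPKM values of a sample, was 0.955 to 1 in the CpdA 2 h samples, 0.976 to 0.982 in the CpdA 4 h samples and 0.844 to 0.854 in the vehicle samples. Read totals were unknown, so no counting interval was given. VIM, a mesenchymal filament gene of this line, ranged from 1267 to 1464 RPKM over the 10 samples. ESR1, the estrogen receptor gene, did not exceed 0.0048 RPKM and PGR, the progesterone receptor gene, 0.0025 RPKM, while ERBB2 ranged from 15.9 to 21.6 RPKM and KRT19, a keratin of luminal cells, from 257 to 371 RPKM. NR3C1, which encodes GR, measured 24.7 and 25.5 RPKM at CpdA 2 h and 23.0 and 22.1 RPKM at CpdA 4 h, a log2 difference of −0.16 ± 0.09 (SE, limma adjusted p = 0.272). The 2 groups did not overlap for NR3C1, which was also true of 66.4% of the genes tested, and the vehicle samples measured 22.9 and 20.4 RPKM. In bulk RNA, fewer cells with a transcript and less of it per cell cannot be told apart.

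Many genes moved a little between 2 h and 4 h of CpdA, and few moved by more than 2-fold. At an adjusted p below 0.05 (limma, Benjamini-Hochberg over all genes tested), 662 genes were higher at 4 h (5.21%) and 915 were lower (7.2%). With a fold change over 2 in addition, 17 genes were higher (0.134%) and 31 were lower (0.244%). The 17 higher genes were TGIF2-C20orf24, SNORD46, HECW2, HSPA6, MIR570, ARC, GCLC, SLC7A11, OSGIN1, HMOX1, LOC344887, SDF2L1, SRXN1, PTHLH, DERL3, GCLM and ZNF165. The 31 lower genes were PDGFB, NR4A2, NR4A1, EGR2, RASD1, EGR1, PCNA-AS1, CTGF, HES1, EDN1, IL6, SDPR, NR4A3, CYR61, TRERF1, SPRY4-IT1, WEE1, PTGER4, DUSP5, DUSP8, CSRNP1, SGK1, PPP1R3B, ARID5B, NEDD9, ATF3, HSD3B1, MB21D2, CD274, GPR39 and E2F2. The 4 h and 2 h replicates of all 48 did not overlap, which was also true of 8441 of the genes tested (66.4%). Leaving out 1 CpdA library gave 11 higher and 12 lower genes without 2 h replicate 1, 13 and 17 without 2 h replicate 2, 11 and 18 without 4 h replicate 1, and 13 and 16 without 4 h replicate 2. Each such fit leaves 1 library in a group, and far fewer of all genes passed the adjusted p in it than in the full fit. List counts from these fits are therefore not comparable with the shares of all genes in the full fit. With 2 samples against 2, the tests rest on a spread pooled over the 5 groups and moderated across genes. The vehicle samples are 1 of these groups, so the difference between them enters the spread of every CpdA time test. With the 4 CpdA samples alone, 29 genes were higher and 45 were lower.

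The vehicle samples differed in the same direction as the CpdA times for most of these genes. Vehicle replicate 2 was above replicate 1 for 15 of the 17 higher genes, with a median log2 difference of 0.44 beside a median CpdA time difference of 1.31. It was below replicate 1 for 30 of the 31 lower genes, with a median of −0.78 beside −1.17. Over all genes tested, vehicle replicate 2 was the higher sample for 49.1%. The vehicle difference was at least 50% as large as the CpdA time difference, in the same direction, for 5 of the 17 and 20 of the 31. Across the 12713 genes the CpdA time difference and the vehicle difference, which share no library, had a Pearson r of 0.298. Across the 1577 genes past the adjusted p, r was 0.697. These were chosen by the CpdA time difference itself, a choice that tends to raise r, so the values are not comparable. Genes are not independent replicates, and which vehicle sample belonged to which time was taken from the column names.

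**Figure D1:**
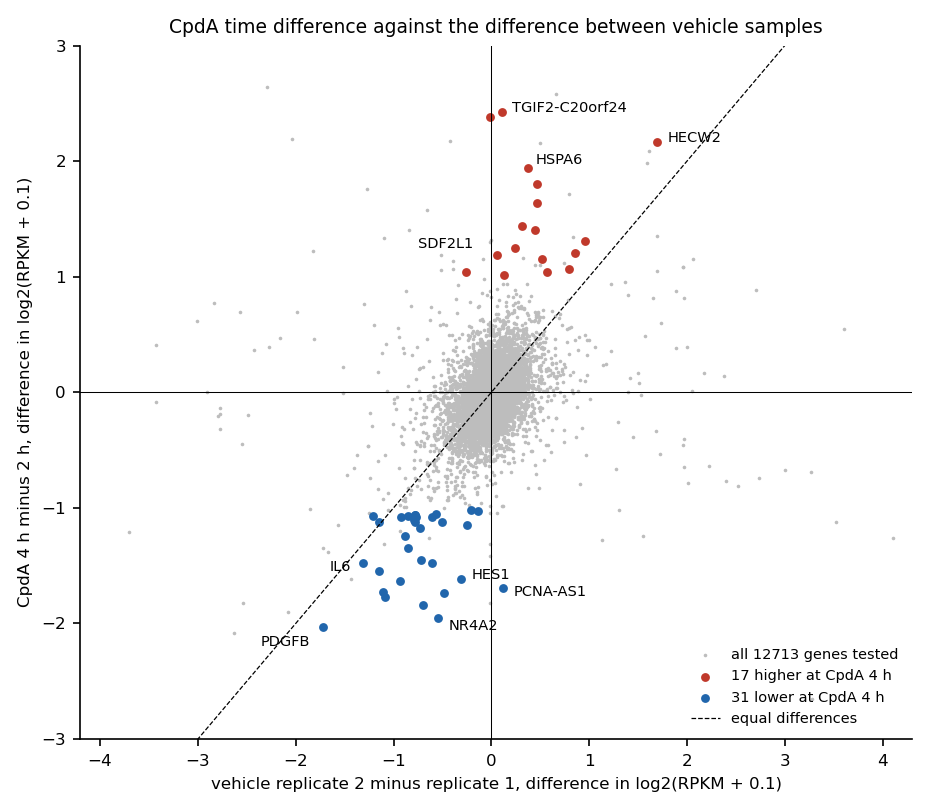
Each point is a gene tested. The vertical axis is the mean log2(RPKM + 0.1) at CpdA 4 h minus that at CpdA 2 h (n = 2 each), the horizontal axis vehicle replicate 2 minus vehicle replicate 1 (1 library each), red points are the 17 genes higher at 4 h, blue points the 31 lower, and the dashed line marks equal differences. Nearly all blue points lie left of 0 (30 of 31) and most red points right of it (15 of 17), and HSPA6, SDF2L1, HES1 and PCNA-AS1 stand far from the dashed line.

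The CpdA time difference was then tested against the vehicle difference in 1 model with the vehicle samples as groups of 1, which assumes that a lone sample varies like the other groups. At an adjusted p below 0.05, 41 genes differed (0.323%), 20 with a higher and 21 with a lower time difference. Of the 17 higher genes 4 passed in the same direction, and of the 31 lower genes 6. With a fold change over 2 in addition, 10 genes passed (0.0787%), and 1343 had an unadjusted p below 0.05. These were GCLC, HMOX1, HERPUD1, SDF2L1, NFKBIA, BIRC3 and SNORA71A, whose CpdA time difference was the higher, and NR4A2, HES1 and RASD1, where it was the lower. The count was 0 without CpdA 2 h replicate 1, without CpdA 2 h replicate 2 and without CpdA 4 h replicate 1 in limma, with 916, 954 and 949 genes at an unadjusted p below 0.05. It was 8 without CpdA 4 h replicate 2 and 24 without either Dex 4 h library, which enter only through the pooled spread.

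Each gene regulated against the mean of both vehicle samples was placed in a time class. Against vehicle, 62 genes passed at 2 h (0.488%) and 113 at 4 h (0.889%) with a fold change over 2 and an adjusted p below 0.05. A gene past both limits at 2 h but not at 4 h was called transient, and one past them at 4 h alone late. In both cases the time difference had to pass a fold change of 1.5 and an adjusted p of 0.05. A gene past both limits at both times with no such time difference was called sustained. Late genes could thus differ from vehicle by less than 2-fold at 2 h. Genes regulated at both times that also differed between them were called growing or partly returned, and the others unresolved. There were 13 transient induced and 2 transient repressed genes, 9 sustained induced and 9 sustained repressed genes, 18 late induced and 19 late repressed genes, 6 growing induced genes and 1 growing repressed gene, 8 partly returned induced genes, 1 gene that turned from repressed to induced, and 33 induced and 22 repressed genes that were unresolved. The classes share the vehicle and CpdA samples, so their counts are not independent of each other.

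**Figure D2:**
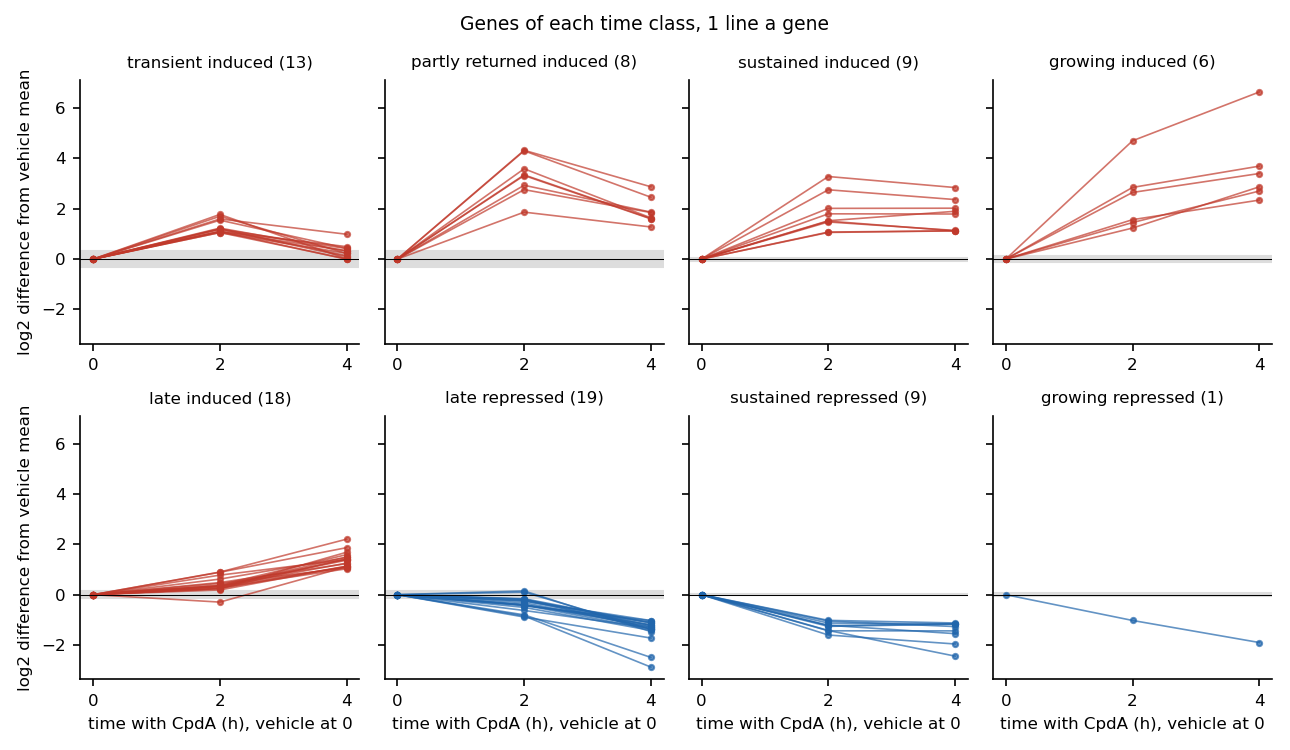
Each line is a gene of the class named above the panel, plotted as its log2(RPKM + 0.1) difference from the mean of the vehicle samples after 2 h and 4 h of CpdA, with vehicle drawn at 0. The number of genes stands in parentheses, the grey band is the median of the genes' distance of a vehicle sample from the vehicle mean, and transient repressed, turned and unresolved genes are not drawn. Late induced genes spread from −0.29 to 0.90 at 2 h and from 1.03 to 2.21 at 4 h, while partly returned genes stayed at 1.28 or above at 4 h.

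The choice of vehicle sample moved some classes and not others. The class time test stayed CpdA 4 h against 2 h under each choice, with no vehicle difference taken off. Against vehicle replicate 2 alone, 33 genes were transient induced, 21 sustained induced and 5 transient repressed. Against vehicle replicate 1 alone, 2 were transient induced, 39 late repressed and 0 transient repressed. With each time set against its own vehicle sample, 2 genes were transient induced, IL6 and GEM. IL6 alone was transient induced under all 4 references. By contrast, all 6 growing induced genes, all 8 partly returned genes, 14 of 18 late induced genes, 12 of 19 late repressed genes, 8 of 9 sustained induced genes and 5 of 9 sustained repressed genes kept their class under all 4 references. Of the 13 transient induced genes, 12 were lower in vehicle replicate 2 than in replicate 1 by at least 50% of their CpdA time difference. The same was true of 2 of the 8 partly returned genes. Leaving out 1 CpdA library gave 3 (2 h replicate 1) or 4 (each of the others) transient induced genes, 14 to 16 sustained induced genes without 2 h replicate 1, 2 h replicate 2 or 4 h replicate 1, 10 to 12 late repressed genes without the same libraries, 5 sustained repressed genes without 2 h replicate 2 and 11 late induced genes without 4 h replicate 2.

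Antioxidant genes made up much of the late induced class. Of 26 measured NRF2 antioxidant genes, 17 were higher at 4 h at an adjusted p below 0.05 and 0 were lower (limma, 18 and 0 at an unadjusted p below 0.05), beside 5.21% and 7.2% of all genes. The median log2 difference of the list was 0.25, beside 0.07 between the vehicle samples and −0.01 for all genes. SLC7A11, GCLC, GCLM, SRXN1, TXNRD1 and OSGIN1 were late induced and HMOX1 was growing induced. SLC7A11 and TXNRD1 had no class against vehicle replicate 2 alone or with each time against its own vehicle sample, and OSGIN1 was growing induced against replicate 1 alone and against its own vehicle samples. Without 1 of the 4 CpdA libraries the median of the list was 0.25 to 0.27, while fewer members, and fewer of all genes, passed.

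GCLC, the catalytic subunit of the rate-limiting enzyme of glutathione synthesis, measured 11.9 and 11.5 RPKM at 2 h and 32.2 and 31.5 RPKM at 4 h, with 8.80 and 11 RPKM in vehicle. The 4 h samples stood clear of the other CpdA and vehicle samples, and the log2 difference between times was 1.44 ± 0.09 (adjusted p = 0.000137), beside 0.31 between the vehicle samples. GCLM, its modifier subunit, measured 21.4 and 21.0 RPKM at 2 h and 42.4 and 44.7 RPKM at 4 h, a difference of 1.04 ± 0.15 (adjusted p = 0.00468). Both subunits of the enzyme were thus about as high as vehicle replicate 2 or slightly above it at 2 h and rose afterwards, GCLM from a vehicle pair of 13.7 and 20.4 RPKM. SLC7A11, the cystine transporter that supplies glutathione synthesis, measured 11.1 and 12.4 RPKM at 2 h, below both vehicle values of 12.3 and 16.8 RPKM in 1 replicate, and 30.6 and 31.8 RPKM at 4 h. Its time difference was 1.41 ± 0.19 (adjusted p = 0.00352), and against the vehicle difference of 0.44 it did not pass (adjusted p = 0.288).

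HMOX1, the haem-degrading enzyme haem oxygenase, rose at both times. It measured 14.4 and 17.0 RPKM in vehicle, 42.3 and 43.8 RPKM at 2 h and 100 and 105 RPKM at 4 h. The groups did not overlap, the time difference was 1.25 ± 0.07 (adjusted p = 9.7e-05), and it also passed against the vehicle difference of 0.24 (adjusted p = 0.00731). SRXN1, which reactivates peroxiredoxins, measured 89.7 and 85.1 RPKM at 2 h and 197 and 192 RPKM at 4 h, a difference of 1.15 ± 0.13, with 57.5 and 82.6 RPKM in vehicle. TXNRD1, the cytosolic thioredoxin reductase and the most abundant of these transcripts per length, measured 333 and 326 RPKM at 2 h and 640 and 624 RPKM at 4 h, with 255 and 328 RPKM in vehicle. Its 2 h values lay near vehicle replicate 2, and its time difference was 0.94 ± 0.10 (adjusted p = 0.00124). OSGIN1, an oxidative stress-induced growth inhibitor, measured 24 and 21.9 RPKM at 2 h and 57.0 and 56.8 RPKM at 4 h, but the vehicle samples differed almost as much in their own right, at 8.76 and 17.1 RPKM. Its difference of 1.31 ± 0.23 (adjusted p = 0.00947) reached an adjusted p of up to 0.0757 over the alternatives, and did not pass without any 1 CpdA library. The list members GSR and SQSTM1, which regenerate glutathione and bind ubiquitinated cargo, rose by less, with log2 differences of 0.53 and 0.45, and NQO1 by 0.29.

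The UPR list moved with almost no vehicle difference. Of 22 measured endoplasmic reticulum UPR genes, 17 were higher at 4 h and 0 were lower, beside 5.21% and 7.2% of all genes. At an unadjusted p below 0.05 in limma, 18 were higher and 1 was lower. The median log2 difference was 0.39, beside −0.03 between the vehicle samples and 0.02 between the Dex times. Without 1 of the 4 CpdA libraries the median was 0.38 to 0.41, while fewer members, and fewer of all genes, passed. Over the other alternatives 15 to 19 of the 22 passed. Against the vehicle difference, 5 of the 22 passed (SDF2L1, HERPUD1, DNAJB9, DNAJB11 and MANF), beside 0.323% of all genes.

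SDF2L1, a cochaperone of the endoplasmic reticulum, measured 24.8 and 25.9 RPKM in vehicle, 30.0 and 29.9 RPKM at 2 h and 71.4 and 65.8 RPKM at 4 h. Its rise therefore lay almost wholly after 2 h, with a time difference of 1.19 ± 0.06 (adjusted p = 5.78e-05). HERPUD1, a component of endoplasmic reticulum-associated degradation, measured 63.3 and 60.2 RPKM in vehicle, 118 and 111 RPKM at 2 h and 232 and 219 RPKM at 4 h. It was intermediate at 2 h and highest at 4 h, with a difference of 0.98 ± 0.05 (adjusted p = 5.78e-05). DNAJB9, a UPR cochaperone, measured 38.4 and 37.7 RPKM at 2 h and 71.3 and 67.0 RPKM at 4 h, a difference of 0.86 ± 0.08. HSPA5, the luminal chaperone BiP, measured 438 and 433 RPKM in vehicle, 538 and 534 RPKM at 2 h and 806 and 788 RPKM at 4 h. Its difference was 0.57 ± 0.05 (adjusted p = 0.000488). DNAJC3, an inhibitor of the UPR kinase PERK, measured 14.7 and 15.0 RPKM at 2 h, below both vehicle samples at 16.0 and 16.7 RPKM, and 27.9 and 27.5 RPKM at 4 h.

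Most heat shock genes were higher at 4 h than at 2 h of CpdA. Of 29 measured heat shock chaperones and cochaperones, 18 were higher at 4 h and 0 were lower, beside 5.21% and 7.2% of all genes. In limma 20 were higher and 0 lower at an unadjusted p below 0.05. The median log2 difference was 0.23, beside 0.08 between the vehicle samples and 0.01 between the Dex times. Against vehicle, 4 of the 29 passed as higher at 2 h and 8 at 4 h, beside 43 and 68 of all 12713 genes. Leaving out 1 CpdA library, the median was 0.23 to 0.27, while fewer members, and fewer of all genes, passed the time test. Only ZFAND2A of the list passed against the vehicle difference, where 0.323% of all genes did.

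HSPA6, an inducible HSP70 that is almost silent in unstressed cells, measured 0.331 and 0.457 RPKM in vehicle, 11.6 and 13.8 RPKM at 2 h and 43.6 and 54.4 RPKM at 4 h. It had the largest log2 difference from vehicle at 4 h of the genes named here, 6.64, and its time difference was 1.94 ± 0.16 (adjusted p = 0.000366), beside 0.37 between the vehicle samples. HSPA1A measured 12.0 and 13.1 RPKM at 2 h and 20.7 and 24.6 RPKM at 4 h, and HSPA1B 31.5 and 34.3 RPKM at 2 h and 51.6 and 59.6 RPKM at 4 h. These HSP70 genes are near-identical copies, so the split of reads between them is uncertain, although both differences (0.85 ± 0.09 and 0.75 ± 0.10) were positive. DNAJB1, their HSP40 partner, was sustained, with 84.1 and 79.0 RPKM in vehicle, 226 and 243 RPKM at 2 h and 287 and 323 RPKM at 4 h. Its small time difference of 0.37 ± 0.06 passed the test (adjusted p = 0.00727) but not without CpdA 2 h replicate 1 or 4 h replicate 2, where the adjusted p reached 0.0733. ZFAND2A, an arsenite-inducible zinc finger gene, measured 30.5 and 30.4 RPKM at 2 h and 52.1 and 52.2 RPKM at 4 h, a difference of 0.78 ± 0.05, with 23.0 and 25.5 RPKM in vehicle.

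Promoter windows are shown for members of the groups that moved together, so that the elements named for each factor can be seen. They run from 250 bases before to 50 bases after the annotated start (RefSeq, GRCh38.p14) and are printed 5′ to 3′ on the gene's strand, with capitals for the motif named. The heat shock element was searched as GAANNTTC or TTCNNGAA, which 13.5% of all 35116 windows held, and was found in 11 of the 26 heat shock list members with a window. The antioxidant response element was searched as TGACNNNGC, on both strands like all of these motifs, and was held by 13.3% of windows and by 5 of the 19 NRF2 list members with a window. The cyclic AMP response element TGACGTCA was held by 1.85% of windows and by 1 of 14 windows of CREB-responsive genes, and the CArG box of serum response factor by 1.29% of windows and by 2 of 29 windows of immediate early and MAPK feedback genes. HSPA6 (chr1:161524290-161524589, + strand) held 3 heat shock elements, of which the pair nearest to the start overlap each other, and ZFAND2A (chr7:1160147-1160446, − strand) held 1. TXNRD1 (chr12:104215529-104215828, + strand) held 2 antioxidant response elements, DUSP1 (chr5:172771146-172771445, − strand) 1 cyclic AMP response element and EGR1 (chr5:138465229-138465528, + strand) 2 CArG boxes. None of the matches in capitals overlapped another of the motifs searched. Every window shown held its motif, which some other named genes of these groups lacked. DNAJB1 held 0 heat shock elements, GCLC and OSGIN1 0 antioxidant response elements, and FOS 0 CArG boxes. NR4A1 and RASD1, both CREB-responsive genes, held 0 cyclic AMP response elements. DUSP1 is shown from the immediate early and MAPK feedback list, not from the CREB-responsive genes.
HSPA6: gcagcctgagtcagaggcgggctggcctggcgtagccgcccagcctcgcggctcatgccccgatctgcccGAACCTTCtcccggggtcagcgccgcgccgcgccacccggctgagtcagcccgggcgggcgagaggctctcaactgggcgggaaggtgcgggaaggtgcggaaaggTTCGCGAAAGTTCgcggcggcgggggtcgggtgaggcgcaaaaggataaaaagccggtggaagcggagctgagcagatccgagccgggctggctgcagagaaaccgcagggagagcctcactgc
ZFAND2A: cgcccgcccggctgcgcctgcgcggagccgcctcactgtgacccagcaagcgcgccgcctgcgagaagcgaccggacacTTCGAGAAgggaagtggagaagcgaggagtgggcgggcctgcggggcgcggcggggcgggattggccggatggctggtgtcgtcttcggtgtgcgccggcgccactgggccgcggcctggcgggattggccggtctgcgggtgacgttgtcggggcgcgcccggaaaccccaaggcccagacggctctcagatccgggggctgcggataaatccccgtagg
TXNRD1: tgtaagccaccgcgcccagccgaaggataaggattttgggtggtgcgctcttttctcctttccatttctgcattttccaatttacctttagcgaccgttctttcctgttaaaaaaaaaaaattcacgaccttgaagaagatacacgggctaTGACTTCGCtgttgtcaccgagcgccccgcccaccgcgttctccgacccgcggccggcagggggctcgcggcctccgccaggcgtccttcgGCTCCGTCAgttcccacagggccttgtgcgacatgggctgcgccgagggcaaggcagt
DUSP1: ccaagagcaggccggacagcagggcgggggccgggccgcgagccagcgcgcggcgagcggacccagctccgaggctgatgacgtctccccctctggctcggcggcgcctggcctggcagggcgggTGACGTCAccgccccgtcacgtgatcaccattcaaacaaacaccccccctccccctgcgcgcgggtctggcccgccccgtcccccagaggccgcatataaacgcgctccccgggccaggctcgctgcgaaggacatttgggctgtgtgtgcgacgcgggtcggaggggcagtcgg
EGR1: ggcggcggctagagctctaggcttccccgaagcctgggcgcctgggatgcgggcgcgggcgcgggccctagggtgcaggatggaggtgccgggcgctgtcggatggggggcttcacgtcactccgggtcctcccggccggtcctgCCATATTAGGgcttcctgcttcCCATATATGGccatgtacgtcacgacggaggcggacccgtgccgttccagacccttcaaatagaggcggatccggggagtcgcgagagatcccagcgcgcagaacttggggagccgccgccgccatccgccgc
A match is a run of letters and not a tested site, and no binding of these factors was measured in the files used here.

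Integrated stress response genes, which serve amino acid supply and the control of translation, moved in both directions. Of 24 measured, 11 were higher at 4 h, 3 were lower and 10 did not pass, beside 5.21% higher and 7.2% lower over all genes. The median log2 difference was 0.14, beside −0.05 between the vehicle samples. ASNS, asparagine synthetase, measured 34.9 and 36.0 RPKM at 2 h and 50.2 and 49.4 RPKM at 4 h, with 31.5 and 32.1 RPKM in vehicle. MTHFD2, a mitochondrial folate enzyme, measured 26.7 and 25.9 RPKM at 2 h and 39.2 and 37.1 RPKM at 4 h, with 21.5 and 21.7 RPKM in vehicle. Both stepped up between 2 h and 4 h with log2 differences of 0.49 ± 0.04 and 0.53 ± 0.04, and both passed against the vehicle difference (adjusted p = 0.0431 and 0.0452). The 3 lower members were DDIT4, ATF3 and CHAC1, which had been above vehicle at 2 h. Without 1 CpdA library, 6 to 7 of the 24 were higher and 1 was lower. Of 32 proteasome subunits 3 were higher and 0 were lower (limma, 11 and 0 at an unadjusted p below 0.05) beside 5.21% higher over all genes, a median of 0.08 beside 0.04 between the vehicle samples, and without 1 CpdA library 0 passed. PSMC4, an ATPase of the proteasome cap, measured 47.6 and 46.1 RPKM at 2 h and 54.7 and 53.8 RPKM at 4 h.

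**Figure D3:**
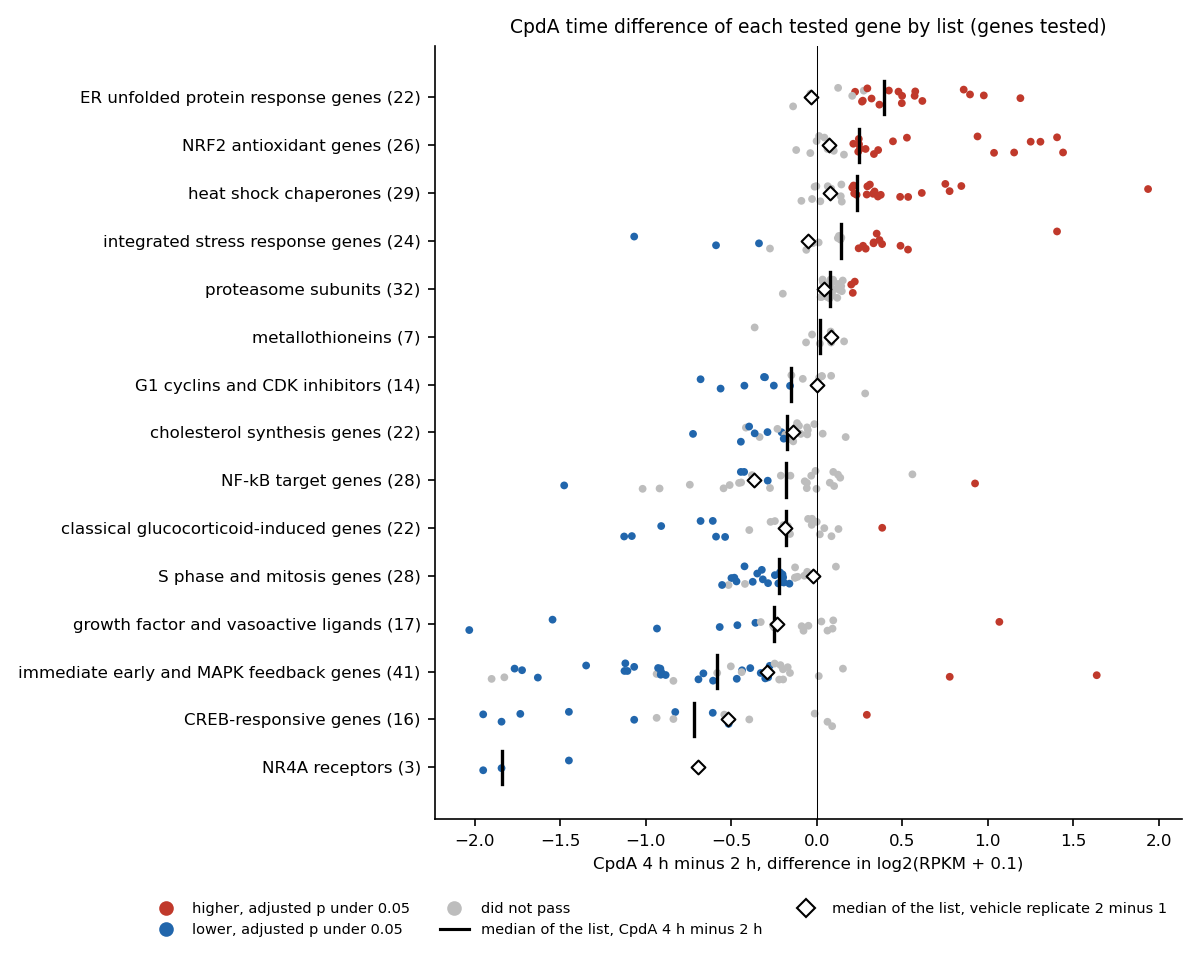
Each point is a measured gene of the list named at the left, with the number tested in parentheses, at its CpdA 4 h minus 2 h difference in log2(RPKM + 0.1). Red and blue points passed an adjusted p of 0.05 in limma, black bars are the lists' medians and open diamonds the medians of the same genes between vehicle replicates 2 and 1. The bar stands clear to the right of the diamond for UPR genes (0.39 beside −0.03), while bar and diamond nearly coincide for cholesterol synthesis genes (−0.17 beside −0.14).

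The NR4A orphan receptors fell farthest among the gene groups. NR4A1 measured 1.75 and 1.05 RPKM in vehicle, 26.9 and 30.3 RPKM at 2 h and 7.30 and 8.54 RPKM at 4 h. NR4A2 measured 2.23 and 1.49 RPKM in vehicle, 24.2 and 22 RPKM at 2 h and 6.05 and 5.73 RPKM at 4 h. NR4A3 measured 0.322 and 0.156 RPKM in vehicle, 6.2 and 6.74 RPKM at 2 h and 2.10 and 2.53 RPKM at 4 h. All 3 nuclear receptors, immediate early genes themselves, peaked at 2 h and were lower at 4 h, still 2.46, 1.64 and 2.87 log2 units above vehicle. Their time differences were −1.84 ± 0.19, −1.95 ± 0.16 and −1.45 ± 0.22 (adjusted p = 0.00124, 0.000366 and 0.00567), and NR4A2 also passed against the vehicle difference (adjusted p = 0.0237). The vehicle samples differed in the same direction, by −0.69, −0.55 and −0.72.

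RASD1, EGR1, DUSP1, DDIT4 and ATF3 were partly returned as well. RASD1, a Ras-related gene induced by glucocorticoids, measured 3.01 and 2.12 RPKM in vehicle, 28.2 and 25 RPKM at 2 h and 7.87 and 7.95 RPKM at 4 h, a difference of −1.73 ± 0.14 (adjusted p = 0.000338). EGR1, a zinc finger immediate early factor, measured 6.84 and 3.12 RPKM in vehicle, 45.7 and 48.6 RPKM at 2 h and 13.2 and 15.2 RPKM at 4 h. Its difference of −1.72 ± 0.30 passed (adjusted p = 0.00867), but not when any 1 CpdA library was left out, and the adjusted p reached 0.0752 over the alternatives. DUSP1, a MAP kinase phosphatase, measured 14.6 and 11.6 RPKM in vehicle, 90.8 and 86.5 RPKM at 2 h and 46.8 and 47.4 RPKM at 4 h. It thus remained well above vehicle while falling by 0.91 ± 0.08 on the log2 scale, and the fall passed against the vehicle difference of −0.32 (adjusted p = 0.0216). DDIT4, an inhibitor of mTOR signalling, fell from 193 and 182 RPKM to 123 and 126 RPKM, with 53.8 and 49.1 RPKM in vehicle. ATF3 fell from 67.5 and 64.2 RPKM to 31.6 and 31.1 RPKM, with 13 and 5.57 RPKM in vehicle. The ATF3 time difference of −1.07 ± 0.29 was smaller than its vehicle difference of −1.21, which leaves 0.14 when taken off. A return of ATF3 beyond the vehicle difference was therefore not shown.

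**Figure D4:**
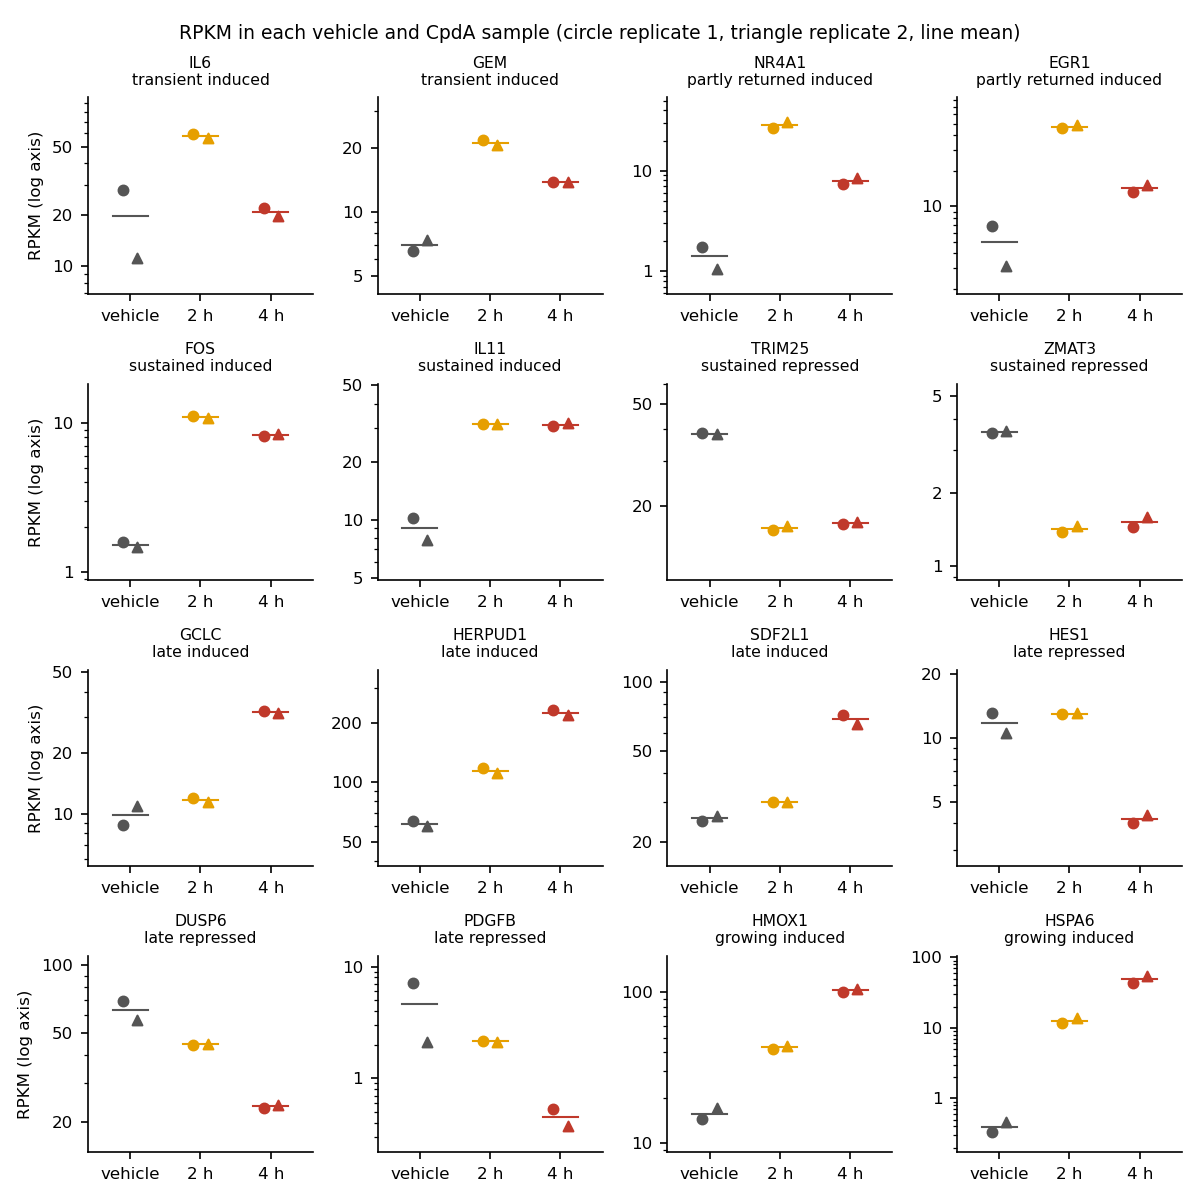
RPKM on a log axis, scaled separately for each gene, in the vehicle, CpdA 2 h and CpdA 4 h samples. Circles are replicate 1, triangles replicate 2, lines the mean of the pair, and the time class stands under the gene. The CpdA replicates of each gene lie close together, while the vehicle pair is far apart for IL6 (28.0 and 11.2 RPKM), EGR1 (6.84 and 3.12 RPKM) and PDGFB (7.19 and 2.11 RPKM).

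More than 50% of the immediate early list was lower at 4 h than at 2 h. Of 41 measured immediate early and MAPK feedback genes, 2 were higher at 4 h (ARC and DUSP2) and 23 were lower. The shares of all genes were 5.21% and 7.2%. With the 4 CpdA samples alone, 2 of the 41 were higher and 36 lower, beside 1561 and 1939 of all 12713 genes. The median log2 difference was −0.58, beside −0.29 between the vehicle samples and −0.35 between the Dex times, and 3 members passed as lower against the vehicle difference (IER2, DUSP6 and DUSP1). When 1 CpdA library was left out the median was −0.59 to −0.57, while fewer members, and fewer of all genes, passed. JUNB, an AP-1 subunit, is an example of the shared difference: it measured 50.8 and 52.3 RPKM at 2 h and 28.7 and 27.1 RPKM at 4 h, beside 45.0 and 25.1 RPKM in vehicle replicates 1 and 2. IER2, an immediate early gene, is a contrary example, with 67.7 and 67.6 RPKM at 2 h and 42.5 and 41.2 RPKM at 4 h beside 59.6 and 63.8 RPKM in vehicle. ARC, an activity-regulated gene, was low throughout, at 0.0529 and 0.111 RPKM in vehicle, 0.369 and 0.280 RPKM at 2 h and 1.06 and 1.39 RPKM at 4 h. It rose while most of its list fell, with a difference of 1.64 ± 0.22 (adjusted p = 0.00293), and of 0.74 with a pseudocount of 1.

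Transient genes included cytokines and signalling factors. IL6, an inflammatory cytokine, measured 59.5 and 56.5 RPKM at 2 h and 22 and 19.6 RPKM at 4 h. Its vehicle values of 28.0 and 11.2 RPKM lay on both sides of the 4 h values. The vehicle difference of −1.31, which leaves −0.16 when taken off, was nearly as large as the CpdA time difference of −1.48 ± 0.32. That difference passed (adjusted p = 0.0187) but not when any 1 CpdA library was left out (adjusted p up to 0.118 over the alternatives). GEM, a small GTPase, measured 6.53 and 7.39 RPKM in vehicle, 21.8 and 20.6 RPKM at 2 h and 13.9 and 13.8 RPKM at 4 h. It was the transient gene whose vehicle samples differed in the opposite direction, and its fall of −0.61 ± 0.07 passed against the vehicle difference (adjusted p = 0.0237). At 4 h it was still 0.99 above vehicle on the log2 scale, just under the 2-fold limit, so its return was partial. DUSP8, a phosphatase of stress-activated kinases, measured 1.90 and 0.801 RPKM in vehicle, 4.07 and 3.58 RPKM at 2 h and 1.78 and 1.63 RPKM at 4 h. ARTN, a GDNF family ligand, measured 6.26 and 3.96 RPKM in vehicle, 12.3 and 11.4 RPKM at 2 h and 6.46 and 6.06 RPKM at 4 h. Both had returned to the vehicle range or close to it by 4 h, and neither time difference passed without any 1 CpdA library. The time differences of DUSP8 and ARTN, −1.12 ± 0.29 and −0.91 ± 0.17, stood beside vehicle differences of −1.15 and −0.65. Taking these off leaves 0.03 for DUSP8 and −0.26 for ARTN. The remaining transient induced genes were ARID5B, BCL6, BDNF, CD274, CEBPD, CSRNP1, EGR2, SGK1 and SIK1. The 2 transient repressed features were the short RNAs SNORD46 and MIR570, listed at 0 in both 2 h samples and between 0.174 and 0.516 RPKM in the 4 h samples.

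Sustained genes were induced or repressed at both times, with no time difference past the class limits, which does not show that their levels held. FOS, an AP-1 subunit, measured 1.6 and 1.47 RPKM in vehicle, 11.1 and 10.8 RPKM at 2 h and 8.21 and 8.43 RPKM at 4 h, a small fall of −0.39 ± 0.07 (adjusted p = 0.00764) that did not pass without any 1 CpdA library (adjusted p up to 0.0833). IL11, a cytokine of the IL6 family, measured 10.2 and 7.80 RPKM in vehicle, 31.3 and 31.4 RPKM at 2 h and 30.6 and 31.8 RPKM at 4 h. IL24, a cytokine of the IL10 family, measured 0.824 and 0.573 RPKM in vehicle, 3.07 and 3.10 RPKM at 2 h and 3.18 and 3.03 RPKM at 4 h. The times overlapped for both cytokines, with differences of −0.01 ± 0.10 and 0.01 ± 0.17. The other sustained induced genes were AREG, AVPI1, CHAC1, SNAI1 and the short RNA MIR4442.

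Among the sustained repressed genes, TRIM25, a ubiquitin ligase of antiviral signalling, measured 38.5 and 38.2 RPKM in vehicle, 16.0 and 16.6 RPKM at 2 h and 17.0 and 17.2 RPKM at 4 h. ZMAT3, a zinc finger RNA-binding protein gene, measured 3.52 and 3.57 RPKM in vehicle, 1.38 and 1.47 RPKM at 2 h and 1.45 and 1.59 RPKM at 4 h. The noncoding RNA THRIL measured 4.57 and 4.64 RPKM in vehicle, 1.76 and 2.10 RPKM at 2 h and 1.40 and 1.62 RPKM at 4 h. The vehicle samples were close for all 3, and the time differences were 0.07 ± 0.07, 0.09 ± 0.09 and −0.33 ± 0.15, none past the test (adjusted p = 0.555, 0.592 and 0.183). CSF2, the growth factor GM-CSF, measured 12.8 and 6.08 RPKM in vehicle, 3.54 and 2.94 RPKM at 2 h and 1.55 and 1.54 RPKM at 4 h. Its time difference of −1.02 ± 0.31 came with an adjusted p of 0.0647 and an equal vehicle difference of −1.06.

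Late repressed genes included a transcription factor, growth factor and feedback genes. HES1, a Notch target repressor, measured 13.1 and 10.5 RPKM in vehicle, 12.9 and 13.1 RPKM at 2 h and 3.99 and 4.37 RPKM at 4 h. Its fall lay wholly after 2 h, with a difference of −1.62 ± 0.10 (adjusted p = 0.000137), and passed against the vehicle difference of −0.31 (adjusted p = 0.0126). DUSP6, an ERK phosphatase, measured 69.7 and 57.2 RPKM in vehicle, 44.3 and 44.7 RPKM at 2 h and 23.3 and 23.8 RPKM at 4 h, a difference of −0.91 ± 0.08 (adjusted p = 0.000686). DUSP6 and DUSP1 thus fell by the same log2 amount from opposite sides of vehicle. PDGFB, the B chain of platelet-derived growth factor, measured 2.14 and 2.13 RPKM at 2 h and 0.526 and 0.377 RPKM at 4 h, but the vehicle samples at 7.19 and 2.11 RPKM differed by −1.72, close to its time difference of −2.03 ± 0.43. It passed (adjusted p = 0.0172) but not without any 1 CpdA library (adjusted p up to 0.12 over the alternatives).

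SERTAD4 measured 4.33 and 3.33 RPKM in vehicle, 2.12 and 1.90 RPKM at 2 h and 1.08 and 1.09 RPKM at 4 h. NOG, the BMP antagonist noggin, measured 57.1 and 59.0 RPKM in vehicle, 45.0 and 43.7 RPKM at 2 h and 24.6 and 23.1 RPKM at 4 h, a difference of −0.89 ± 0.05 (adjusted p = 5.78e-05) beside 0.05 between the vehicle samples. PCNA-AS1 measured 9.60 and 10.4 RPKM in vehicle, 6.65 and 4.88 RPKM at 2 h and 2.38 and 1.2 RPKM at 4 h, a difference of −1.69 ± 0.30 (adjusted p = 0.00881). The means of all 3 stepped down at each time, NOG with little spread and PCNA-AS1 with a wide spread between duplicates. At 2 h SERTAD4 differed from vehicle by −0.89 (limma adjusted p = 0.00511), under the 2-fold limit. PCNA-AS1 did not pass at 2 h (−0.80, limma adjusted p = 0.162). PCNA-AS1 is antisense to PCNA and SPRY4-IT1, another member, lies within SPRY4, and strand-specific counting was not stated, so their reads cannot be told from those of their partners. PCNA-AS1 did not pass without CpdA 2 h replicate 1 or 4 h replicate 2 (adjusted p up to 0.0776 over the alternatives). Other late repressed genes were CCRL2, CITED4, FAM43A, FZD1, GPR39, HCAR1, NLRP3, SDPR, SPRY1, TNS4 and ZNF784. CXCR4, a chemokine receptor, was growing repressed, with 6.15 and 5.56 RPKM in vehicle, 2.85 and 2.80 RPKM at 2 h and 1.44 and 1.55 RPKM at 4 h.

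CTGF, CYR61, EDN1 and HECW2 differed between the times but passed against the vehicle mean at neither time, and so had no class. CTGF and CYR61, matricellular genes now named CCN2 and CCN1, were the most abundant of the 4 per length. CTGF measured 466 and 244 RPKM in vehicle, 538 and 518 RPKM at 2 h and 175 and 166 RPKM at 4 h, and CYR61 884 and 489 RPKM in vehicle, 1228 and 1175 RPKM at 2 h and 482 and 462 RPKM at 4 h. Their time differences of −1.63 ± 0.23 and −1.35 ± 0.21 (adjusted p = 0.00404 and 0.0055) stood beside vehicle differences of −0.93 and −0.85 and did not pass against them (adjusted p = 0.0967 and 0.0742). EDN1, the vasoconstrictor endothelin 1, measured 22.7 and 10.2 RPKM in vehicle, 23.8 and 21.2 RPKM at 2 h and 8.05 and 7.23 RPKM at 4 h. For CTGF, CYR61 and EDN1, vehicle replicate 1 resembled CpdA 2 h more than vehicle replicate 2 did. EDN1 lost its call without any 1 CpdA library (adjusted p up to 0.0791). HECW2, a ubiquitin ligase, measured 0.264 and 1.08 RPKM in vehicle, 0.221 and 0.274 RPKM at 2 h and 1.33 and 1.59 RPKM at 4 h, and lost its call likewise (adjusted p up to 0.12). TGIF2-C20orf24, a read-through symbol that shares exons with its neighbours, was the gene counted above as turned from repressed to induced. It had no class against either vehicle sample alone or with each time against its own vehicle sample. Its increase was the largest among the 17 genes that passed, from 0.346 and 0.536 RPKM at 2 h to 3.02 and 2.53 RPKM at 4 h. The vehicle samples measured 1.2 and 1.30 RPKM, and how reads were split between these symbols was not stated.

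Many cell cycle transcripts were lower at 4 h. Of 28 measured S phase and mitosis genes, 18 were lower and 0 were higher, beside 7.2% and 5.21% of all genes. In limma 22 were lower and 0 higher at an unadjusted p below 0.05. The median log2 difference of the list was −0.22, beside −0.02 between the vehicle samples and −0.18 between the Dex times. AURKA, a mitotic kinase, measured 38.5 and 37.8 RPKM in vehicle, 33.5 and 34.0 RPKM at 2 h and 24 and 23.8 RPKM at 4 h, a difference of −0.50 ± 0.04 (adjusted p = 0.000268) that passed against the vehicle difference (adjusted p = 0.0377). KIF20A, a mitotic kinesin, measured 22.9 and 23.0 RPKM at 2 h and 15.6 and 15.6 RPKM at 4 h, with 23.8 and 21.5 RPKM in vehicle. Of 14 measured G1 cyclins and CDK inhibitors, 7 were lower and 0 were higher, beside 7.2% and 5.21% of all genes. At an unadjusted p below 0.05 in limma, 8 were lower and 0 higher. CDKN2C, an inhibitor of CDK4 and CDK6, measured 21.3 and 20.1 RPKM at 2 h and 13.8 and 14.2 RPKM at 4 h, with 21.3 and 20.5 RPKM in vehicle. The 7 lower members were CCND1, CCNE2, E2F1, CDKN1B, CDKN1C, CDKN2C and CDKN2D, so that they included cyclins and CDK inhibitors. CCND1 fell by 0.25 and CDKN2C fell by 0.56 on the log2 scale. Without 1 CpdA library, the medians were −0.23 to −0.20 for the 28 genes and −0.16 to −0.14 for the 14. Fewer members, and fewer of all genes, passed in these fits.

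Inflammatory and glucocorticoid-responsive lists were mixed. Of 28 measured NF-κB target genes 1 was higher at 4 h and 4 were lower, beside 5.21% and 7.2% of all genes, and the median of −0.18 was nearer to 0 than the −0.37 between the vehicle samples. NFKBIA, the NF-κB inhibitor IκBα, measured 47.9 and 37.8 RPKM in vehicle, 25.7 and 24.5 RPKM at 2 h and 48.7 and 47.0 RPKM at 4 h. It was below vehicle at 2 h and back at the level of vehicle replicate 1 at 4 h, with a difference of 0.93 ± 0.10 (adjusted p = 0.00124) that passed against the vehicle difference of −0.34 (adjusted p = 0.00731). BIRC3, an inhibitor of apoptosis, had a time difference of 0.56 that did not pass by itself (adjusted p = 0.16), and passed against its vehicle difference, 17.1 RPKM in replicate 1 and 8.72 RPKM in replicate 2. ICAM1, an adhesion molecule, measured 51.6 and 47.8 RPKM in vehicle, 27.3 and 27.2 RPKM at 2 h and 22.7 and 22 RPKM at 4 h, and stayed below vehicle at both times. Without 1 CpdA library, 1 was higher and 0 to 1 lower. Of 22 measured classical glucocorticoid-induced genes 1 was higher (FKBP5, by 0.38) and 7 were lower, DUSP1, SGK1 and PTGER4 among them, with a median of −0.18 beside −0.18 between the vehicle samples. Without 1 CpdA library, 0 were higher and 4 lower. None of 7 metallothioneins passed in limma (0 higher and 1 lower at an unadjusted p below 0.05).

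Growth factor and cholesterol genes had vehicle differences close to their CpdA time differences. Of 17 measured growth factor and vasoactive ligands 1 was higher (PTHLH) and 6 were lower, beside 5.21% and 7.2% of all genes. The median of these ligands was −0.25, beside −0.23 between the vehicle samples. Of 22 cholesterol synthesis genes 7 were lower and 0 were higher, beside 7.2% and 5.21% of all genes. In limma 14 were lower and 0 higher at an unadjusted p below 0.05, and the median was −0.17 beside −0.14. MVK, mevalonate kinase, measured 29.2 and 29.5 RPKM at 2 h and 22.1 and 22.5 RPKM at 4 h, with 28.5 and 26.7 RPKM in vehicle. No member of these lists passed against the vehicle difference in limma. Of 16 CREB-responsive genes, which share the NR4A genes and ATF3 with other lists, 1 was higher and 8 were lower. These counts stood beside 5.21% and 7.2% of all genes, and the median was −0.72 beside −0.52. With the 4 CpdA samples alone, 9 growth factor, 13 cholesterol and 11 CREB-responsive genes were lower. In that fit 1 gene of each list was higher, and 1939 of all 12713 genes were lower. Without 1 CpdA library, 0 growth factor genes, 1 cholesterol gene and 4 to 5 CREB-responsive genes were lower.

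The CpdA time course differed from that of Dex for a subset of genes. The difference between 4 h and 2 h passed an adjusted p of 0.05 for 1725 genes with Dex (13.6%). The CpdA time difference differed from the Dex time difference for 112 genes (0.881%, fold change over 2 and adjusted p below 0.05), of which 40 had a higher and 72 a lower value with CpdA, and the count was 74 without CpdA 2 h replicate 1. Of the 17 genes higher at CpdA 4 h, 11 were among them in the same direction, and of the 31 lower genes 9. These genes were chosen by the CpdA time difference, which is also a term of this test. Overlap in the same direction was therefore favoured by the choice. The CpdA and Dex time differences come from libraries that do not overlap, apart from the shared spread estimate. The ligands were given at different concentrations, and no dose series was measured.

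HSPA6 measured 0.418 RPKM at Dex 2 h and 0.331 RPKM at Dex 4 h (means of 2), so that its time difference with CpdA exceeded that with Dex by 2.20 (adjusted p = 0.00117). HMOX1 measured 9.62 and 8.21 RPKM on average at the Dex times, and its time difference was 1.48 higher with CpdA (adjusted p = 0.000264). NR4A1 measured 1.38 and 1.93 RPKM, and its time difference was lower with CpdA by 2.31 (coded as −2.31, adjusted p = 0.00198). These genes stayed low with Dex at both times. GCLC was different, rising with Dex from 19.8 to 38.6 RPKM on average, and its time difference was not shown to differ between ligands (0.49 ± 0.13, adjusted p = 0.0556). Of the UPR list 14 of 22 members had a higher time difference with CpdA at an adjusted p below 0.05, of the heat shock list 10 of 29 and of the NRF2 list 6 of 26, beside 452 of all 12713 genes. FKBP5, a classical GR target, had a time difference 1.10 lower with CpdA than with Dex (−1.10, adjusted p = 0.000738).

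**Figure D5:**
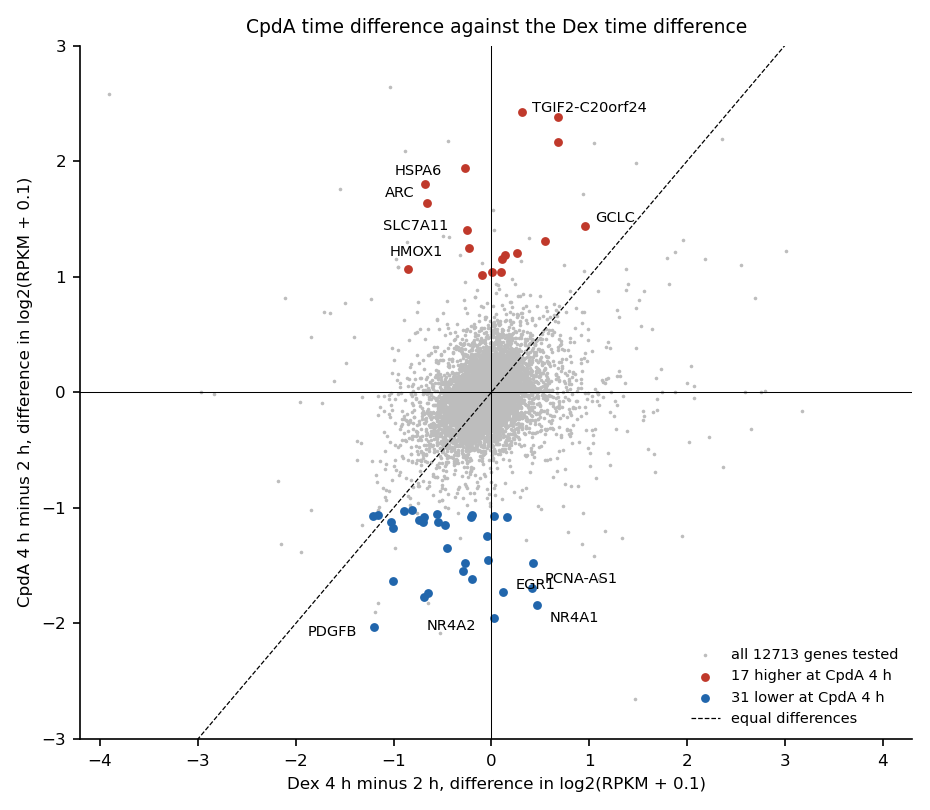
Each point is a gene tested, with the CpdA 4 h minus 2 h difference in log2(RPKM + 0.1) on the vertical axis and the Dex 4 h minus 2 h difference on the horizontal axis (means of 2 samples each). Red points are the 17 genes higher and blue points the 31 genes lower at CpdA 4 h, and the dashed line marks equal differences. HSPA6, ARC, SLC7A11 and HMOX1 lie left of 0 on the Dex axis, while GCLC lies nearer to the dashed line (0.95 with Dex and 1.44 with CpdA).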

How the data were processed

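Reads (50-base, single-end) were aligned by the authors with TopHat2 2.0.13 and summarised in Partek 6.6, with hg19 listed as build in the submitters' processing notes, and deposited as RPKM values for 20668 symbols per sample. Strand handling and read totals were not given in the sources used here. Values were analysed as log2(RPKM + 0.1), so fold changes of low genes are understated. Genes with at least 0.5 RPKM in 2 samples were fitted in limma 3.58.1 (R 4.3.3, lmFit and eBayes with a trend) over 5 groups of 2, with Benjamini-Hochberg adjustment over 12713 genes. Errors are SE of log2 differences from this fit. Vehicle replicates were separate groups in the test against the vehicle difference. The labels call replicates biological. Python 3.11.15 and matplotlib 3.10.9 were used for tables and figures. The scripts were tested on simulated data.

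Genes were named by a rule: the 8 largest increases and 8 largest decreases past both limits (short RNAs and genes under 1 RPKM in both CpdA groups left out), 4 per class and direction, 2 per list by smallest p, and NR3C1. Other genes named were chosen after their values were seen, as were the promoter motifs. The comparison and the gene lists were chosen with earlier results of these data known. Alternatives changed the pseudocount, filter, scaling, variance model, vehicle reference, class limit, replicate block and the libraries used. The ChIP samples of the series were not analysed here. Lists overlap, NR4A genes among them.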

Additional observations from a re-analysis of the deposited data

Results flagged for a closer look

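The change from 2 h to 4 h differed between CpdA and Dex for 112 genes in limma's test of the difference between the ligands' time differences (fold change over 2, adjusted p below 0.05, Benjamini-Hochberg over all genes tested). Among the genes named by the rule, the CpdA time difference was higher than the Dex time difference, in log2 units, by 2.12 for TGIF2-C20orf24, 2.20 for HSPA6, 2.30 for ARC, 1.66 for SLC7A11, 1.48 for HMOX1 and 1.05 for SDF2L1. It was lower than the Dex time difference, with values of −1.98 for NR4A2, −2.31 for NR4A1, −1.09 for RASD1, −1.84 for EGR1, −2.11 for PCNA-AS1, −1.42 for HES1, −1.90 for IL6 and −1.2 for DUSP1. Groups of 2 samples cannot be examined for single samples far from the others.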

How the results depend on the processing

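Of 837 values of named genes under the alternatives, 751 kept their direction and side of the threshold, 82 no longer passed, 4 newly passed and 0 reversed, and 27 of the 44 named genes past the adjusted p passed under every alternative. Of 164 counts, 105 stayed within 1.5 times the reported count. With a pseudocount of 1, 9 genes were higher and 19 lower at CpdA 4 h, 0 transient repressed, 2 sustained repressed, 8 late repressed, and 54 differed between ligands. With a pseudocount of 0.01, 14 were sustained induced. Without a filter, 1 was transient repressed and 43 differed from the vehicle difference. With at least 1 RPKM in every sample, 8 were higher, 0 transient repressed, 12 late repressed, and 57 differed between ligands. In limma without a variance trend, 0 differed from the vehicle difference (1360 at an unadjusted p below 0.05). Without moderation, 11 were higher, 13 lower, 2 transient induced, 0 transient repressed, 5 sustained repressed, 72 differed between ligands and 0 from the vehicle difference (1379 at an unadjusted p below 0.05). With the 4 CpdA samples alone, 29 were higher. With each time against its own vehicle sample, 2 were transient induced and 0 transient repressed. With a fold change of 2 in the class time test, 7 were transient induced, 14 sustained induced, 8 late induced and 6 late repressed. Leaving out 1 library gave 11 to 20 higher and 12 to 38 lower genes, 2 to 33 transient induced, 0 to 5 transient repressed, 11 to 21 sustained induced, 5 to 13 sustained repressed, 11 to 23 late induced and 10 to 39 late repressed genes, 74 to 155 that differed between ligands and 0 to 24 that differed from the vehicle difference (0 to 8 without a CpdA library). The causes were not tested. Replicate numbers did not pair samples (mean correlation of deviations 0.0544, and 0.0085 between the CpdA times), and a replicate block gave 20 higher and 33 lower genes and 14 that differed from the vehicle difference. Depth was known only relative to other samples, so low values carry no counting error here.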
